A study of Mus musculus with 4 samples.

Results

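The genes described here are 10 components of the Notch pathway: the receptors Notch1, Notch2, Notch3 and Notch4, the ligands Jag1, Jag2 and Dll1, and the target genes Hes1, Hey1 and Hey2. They were taken by name, as 10 of 21631 protein-coding genes on chromosomes 1 to 19 and X. A peak was counted for a gene when its summit lay inside the gene's annotated span or within 50 kb of either end. This gave 20 of 21285 peaks in the first deposited peak list (list 1) and 23 of 21218 in the second (list 2). No peak fell to more than 1 of the 10 genes.

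The peaks come from ChIP-seq for the transcription factor TEAD1 in cardiac fibroblasts of neonatal mice. The 4 groups were OE-TEAD1 ChIP and OE-TEAD1 input, from cells overexpressing TEAD1, and OE-NC ChIP and OE-NC input, from cells with the negative control of overexpression, with 1 library in each. No source used here gives the vector, the promoter driving TEAD1, the antibody or the number of animals. Neither list is tied to OE-TEAD1 or OE-NC by its labels, so list 1 and list 2 stand for 2 callings of ChIP against input, and no effect of TEAD1 overexpression is given. Without replicates, no test between the lists was possible. Coordinates are read as GRCm38. Peak lists do not measure expression, so the labelled cell type could not be checked by its markers. At the loci of 10 fibroblast markers, 9 had a peak by the same rule in each list, and Tcf21, a transcription factor of fibroblasts and their epicardial precursors, had none. Of 10 endothelial marker loci 8 had a peak in each list, and of 10 loci of smooth muscle and pericyte markers 9 in list 1 and 10 in list 2. By that rule 58.2% of all protein-coding genes had a peak in list 1 and 59.0% in list 2.

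Notch receptors sit in the cell membrane and are activated by ligands of the Jagged and Delta families on a neighbouring cell. Ligand binding leads to cleavage by an ADAM protease and then by gamma-secretase, and the freed intracellular part enters the nucleus, where it joins the DNA-binding protein RBPJ and a Mastermind coactivator. Classic targets are the Hes and Hey genes, which encode basic helix-loop-helix repressors. In the heart the pathway is known for its part in valve formation, trabeculation and the maturation of smooth muscle around vessels.

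All 4 receptor genes had peaks in both lists, and 2 of 3 ligand genes and 1 of 3 target genes did. In all, 7 of the 10 genes had a peak in list 1 and the same 7 in list 2, while Jag2, Hey1 and Hey2 had none in either. Among all protein-coding genes 58.2% had a peak by this rule in list 1, 59.0% in list 2 and 52.2% in both, and 35.1% had none in either. The count of 7 of 10 is therefore not far from the background. The 4 receptors together had 2.45 peaks per 100 kb of window in list 1 and 2.60 in list 2, the 3 ligands 0.818 and 1.09, and the 3 targets 0.316 and 0.632. Over the windows of all protein-coding genes the rate was 1.1004 in list 1 and 1.08 in list 2. The receptors differed among themselves. Notch2 had 2.96 and 3.38 peaks per 100 kb, Notch3 4.11 and 2.74, and Notch4 1.61 in each list. Notch1 had 0.685 in list 1, below the rate over all genes, and 2.06 in list 2.

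**Figure D1:**
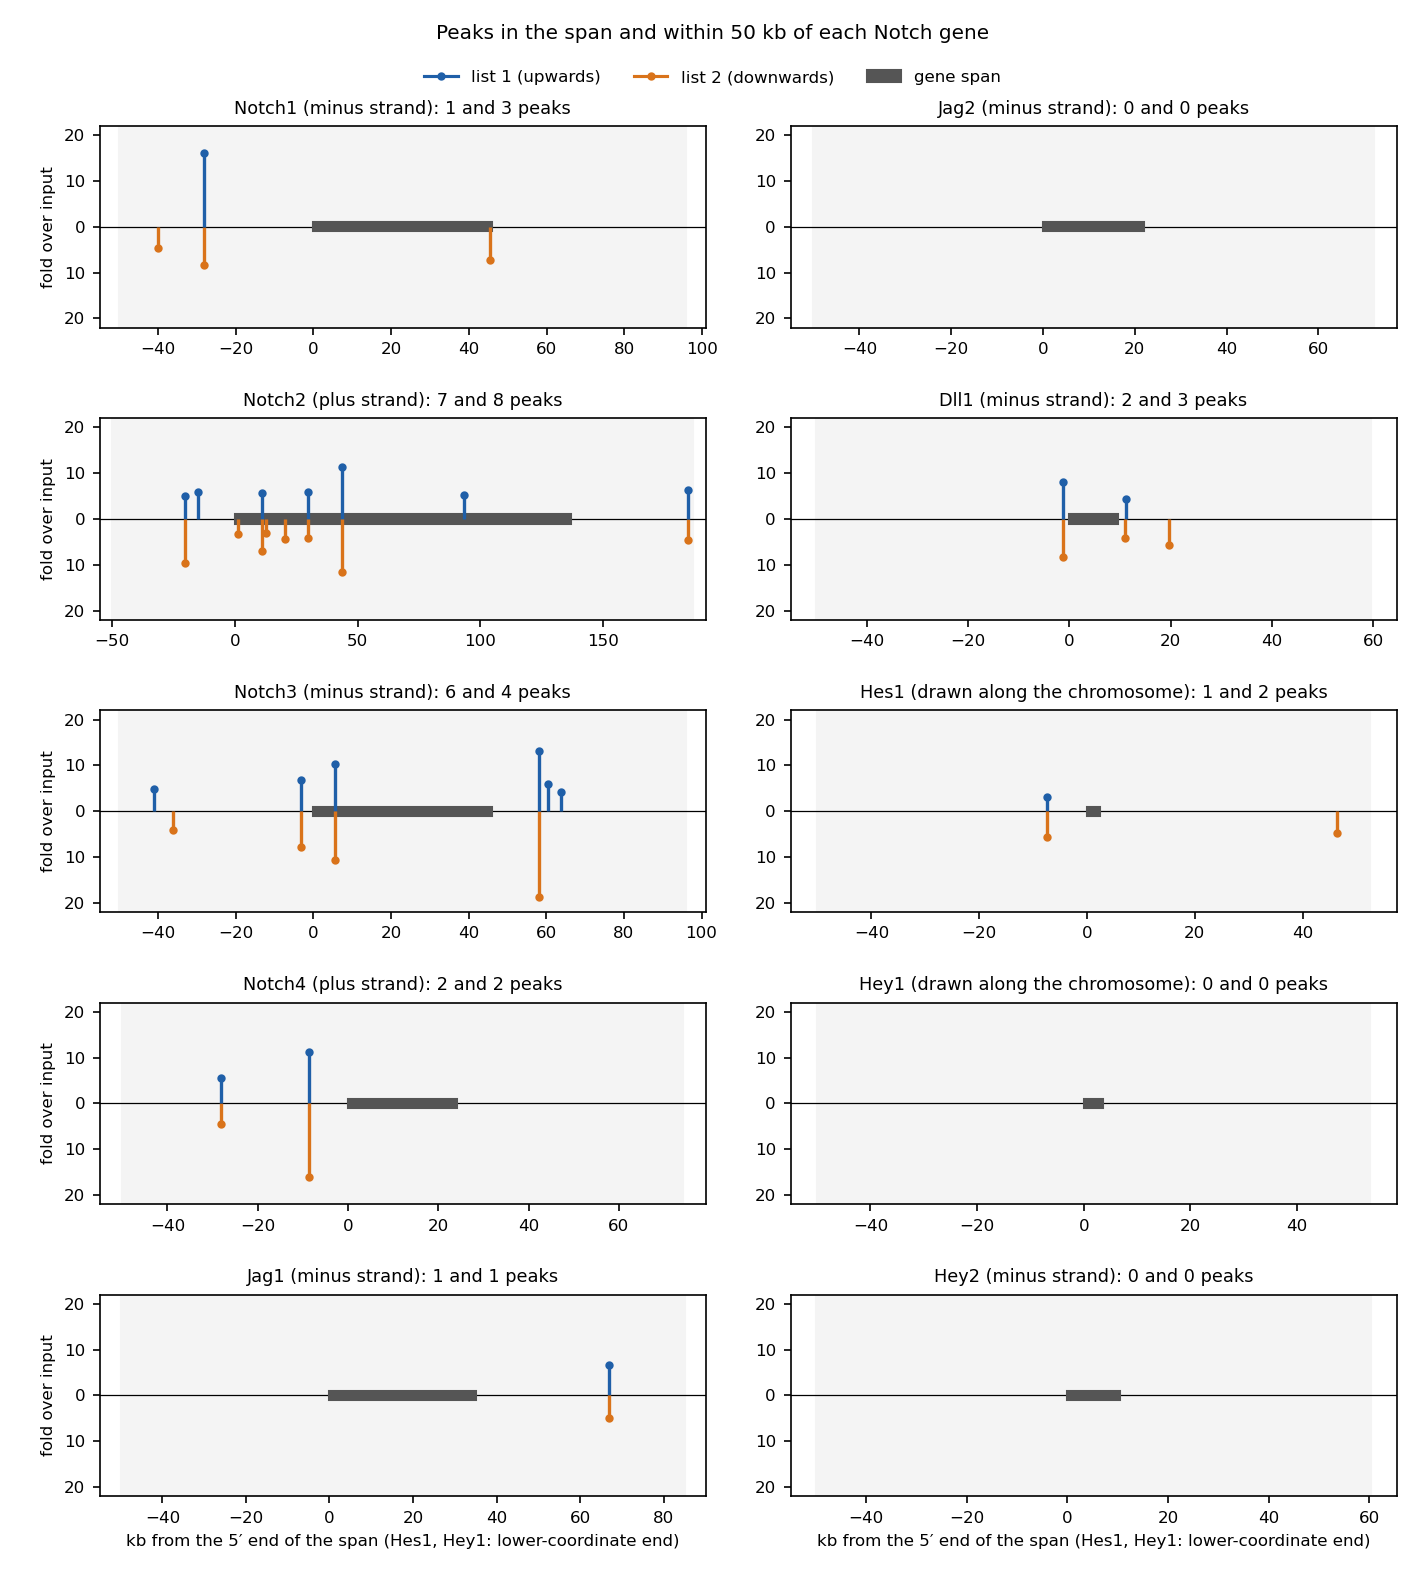
Peaks around the 10 genes, plotted by the distance of the summit in kb from the 5′ end of the gene span (for Hes1 and Hey1 from the end with the lower coordinate) against the authors' fold over input, with list 1 upwards and list 2 downwards. Grey bars are the gene spans and the shaded area is the window of 50 kb on either side. Notch2 and Notch3 carry most of the peaks, and the windows of Jag2, Hey1 and Hey2 are empty.

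No peak lay on an annotated start of these genes. Promoter sequences (RefSeq, GRCm38.p6, from 250 bases before a start to 50 after it) were at hand for 8 of the 10 genes, all but Hes1 and Hey1, with 2 starts for Dll1. None of these 9 promoter windows was overlapped by a peak of either list. Among protein-coding genes with a promoter entry, 1.92% had one overlapped by a peak in list 1 and 1.77% in list 2. The edge of the nearest peak lay 0.753 kb from the promoter window of Dll1 in list 1 and 0.798 kb in list 2. At Notch2 it lay 11.1 kb away in list 1 and 0.748 kb in list 2.

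The promoters were searched on both strands for the core of the TEAD motif, GGAATG or CATTCC, the core of the RBPJ motif, TGGGAA or TTCCCA, the AP-1 motif TGANTCA and the E-box CACGTG. The TEAD core was found in the promoters of 3 genes, Notch1, Notch4 and Hey2, and in 13.5% of the promoters of protein-coding genes. These 3 promoters and that of Dll1, the gene with the summit closest to its start, are printed 5′ to 3′ along the gene, with each match in capitals.
Notch1 (chr2:26503773-26504072, minus strand): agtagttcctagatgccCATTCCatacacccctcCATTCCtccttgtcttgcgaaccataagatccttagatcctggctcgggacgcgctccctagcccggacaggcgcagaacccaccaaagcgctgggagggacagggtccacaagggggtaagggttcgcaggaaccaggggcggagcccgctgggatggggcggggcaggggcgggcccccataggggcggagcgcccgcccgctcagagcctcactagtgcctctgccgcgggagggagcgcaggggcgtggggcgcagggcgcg
Notch4 (chr17:34564045-34564344, plus strand): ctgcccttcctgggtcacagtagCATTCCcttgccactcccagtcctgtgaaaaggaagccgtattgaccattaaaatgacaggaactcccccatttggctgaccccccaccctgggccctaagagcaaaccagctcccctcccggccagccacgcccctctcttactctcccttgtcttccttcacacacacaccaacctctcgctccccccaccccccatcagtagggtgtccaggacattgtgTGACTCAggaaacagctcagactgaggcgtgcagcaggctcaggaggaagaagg
Hey2 (chr10:30842734-30843033, minus strand): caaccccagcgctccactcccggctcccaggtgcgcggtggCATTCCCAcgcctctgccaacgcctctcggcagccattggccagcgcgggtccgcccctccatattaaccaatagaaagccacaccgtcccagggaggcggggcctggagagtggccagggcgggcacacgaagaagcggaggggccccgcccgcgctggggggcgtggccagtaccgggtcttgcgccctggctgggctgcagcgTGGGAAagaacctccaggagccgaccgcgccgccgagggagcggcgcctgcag
Dll1 (chr17:15376883-15377182, minus strand): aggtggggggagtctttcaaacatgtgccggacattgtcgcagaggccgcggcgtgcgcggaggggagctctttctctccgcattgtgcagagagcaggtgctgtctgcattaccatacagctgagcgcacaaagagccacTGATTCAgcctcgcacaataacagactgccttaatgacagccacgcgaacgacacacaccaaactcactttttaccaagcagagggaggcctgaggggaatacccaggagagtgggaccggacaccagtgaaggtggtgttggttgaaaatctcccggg
In Notch1 the capitals are 2 copies of CATTCC, which begin 233 and 216 bases before the start. In Notch4 they are CATTCC, 227 bases before the start, and the AP-1 match TGACTCA, 4 bases before it. In Hey2 the run of capitals far from the start is CATTCC, 209 bases before it, and the RBPJ core TTCCCA, 207 bases before it, which overlap. A further RBPJ core, TGGGAA, begins 3 bases before the Hey2 start. The Dll1 capitals are an AP-1 match, TGATTCA, that begins 109 bases before the start.

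Of the 9 promoters, 1 held the RBPJ core, against 24.2% of promoters of protein-coding genes, 2 held the AP-1 motif, against 7.04%, and none held the E-box, against 7.91%. Over the whole series, the TEAD core was present in 34.4% of 355 protein-coding promoters overlapped by a list 1 peak (95% Wilson interval 29.6 to 39.5) and in 13.1% of 20690 not overlapped. In list 2 it was present in 32.5% of 323 (27.6 to 37.8) and in 13.2% of 20722. The Notch1, Notch4 and Hey2 promoters belong to those that hold these letters without a peak on them.

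Notch1, a widely expressed receptor, had its strongest site 28.2 kb upstream of its start, in both lists. In list 1 this peak (chr2:26531738-26532475) was 16.1-fold over input, from 44 ChIP fragments at the summit over a local background of 1.79 fragments, with an exact Poisson 95% interval of 11.8 to 21.5. In list 2 the peak (chr2:26531898-26532242) was 8.36-fold over input, from 35 fragments over a background of 3.31, with an interval of 5.89 to 11.5. The fold is the authors' value, and its interval covers the counting error of the ChIP fragments and neither the error of the input nor that between cultures. The site lay outside all annotated gene spans. It was the only Notch1 site in list 1. List 2 had another 2 peaks there. That at chr2:26458333-26458629 was 7.34-fold over input (4.72 to 10.9) and lay inside the span, 0.605 kb from its 3′ end, where the lncRNA gene 0610009E02Rik overlaps Notch1. That at chr2:26543797-26544074 was 4.54-fold over input (2.51 to 7.66), 40.0 kb upstream, and its nearest protein-coding gene was Egfl7, the gene of a secreted endothelial factor, at 37.3 kb.

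Notch2 had the most peaks, 7 in list 1 and 8 in list 2, over the longest window of the 10 genes (237 kb, with a span of 137 kb). In list 1 4.07% of protein-coding genes had at least 7 peaks, and in list 2 2.57% had at least 8. Per 100 kb of window this was 2.96 and 3.38 peaks. Over all protein-coding genes the medians were 0.773 and 0.783, and the rates over their windows together, as used above, were higher, at 1.1004 and 1.08. The peaks lay mainly in the 5′ part of the gene and upstream of it. The strongest was inside the gene, 43.6 kb downstream of the start, in both lists. It was 11.2-fold over input in list 1 (8.42 to 14.7, 51 fragments, chr3:98056560-98057669), with 11.6-fold in list 2 (8.27 to 15.9, 37 fragments, chr3:98056712-98057435), and the summits lay 2 bp apart.

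Another 4 Notch2 sites were called in both lists. A site 20.3 kb upstream was 4.94-fold over input in list 1 (3.32 to 7.11), against 9.55-fold in list 2 (6.66 to 13.3). Its local background was 4.67 fragments in list 1 and 2.56 in list 2, with 27 and 33 ChIP fragments. Within the gene, a site 11.3 kb from the start was 5.57-fold over input in list 1 (3.46 to 8.54) and 6.99-fold in list 2 (4.53 to 10.3). It also lay in the lncRNA gene Gm40103. A further site, 29.8 kb from the start in list 1 and 29.9 kb in list 2, had folds of 5.84 and 4.24. The last of these sites, 47.9 kb beyond the 3′ end in list 1 and 47.6 kb in list 2, had folds of 6.24 and 4.54 and lay closer to Reg4, at 23.9 and 24.1 kb. In list 1 alone there were peaks 14.98 kb upstream (5.79-fold) and 93.5 kb inside the gene (5.30-fold). List 2 alone had 3 within the gene, at 1.44, 12.8 and 20.3 kb from the start, with folds of 3.20, 3.12 and 4.34. The peak at 1.44 kb, the one nearest to the start, rested on 10 fragments (interval 1.69 to 5.64), and 98.6% of list 2 peaks were stronger by the authors' −log10 q. The peak at 12.8 kb overlapped the promoter entry of Gm40103.

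Notch3, the receptor known for its role in vascular smooth muscle and pericytes, had 6 peaks in list 1 and 4 in list 2. These were 4.11 and 2.74 peaks per 100 kb, and 6.14% and 13.9% of protein-coding genes had at least as many. Its strongest peak was also the strongest of all 10 genes by −log10 q, in both lists. It lay 11.98 kb beyond the 3′ end and was 13.2-fold over input in list 1 (10.1 to 16.9, 60 fragments, chr17:32108548-32109198), against 18.7-fold in list 2 (14.7 to 23.6, 71 fragments, chr17:32108567-32109158). Of all peaks 9.13% were stronger in list 1 and 8.07% in list 2. Notch3 itself was the protein-coding gene nearest to this site.

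A site 5.59 kb inside Notch3 in list 1 and 5.56 kb in list 2 had folds of 10.4 (7.68 to 13.7, 47 fragments) and 10.7 (7.59 to 14.7, 36 fragments). The third of the shared sites, 3.08 kb upstream of the start in list 1 and 3.14 kb in list 2, was 6.79-fold (4.27 to 10.3) and 7.82-fold (5.21 to 11.3) over input. These 3 sites thus lay upstream, inside and downstream of the gene, each with overlapping intervals in the lists. Peaks called in list 1 only lay 14.4 and 17.8 kb beyond the 3′ end and were weaker, at 5.88-fold and 4.18-fold over input.

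Notch4, a receptor expressed mainly in endothelium, had 2 sites, both shared and both upstream. The stronger lay 8.62 kb from the start in list 1 and 8.61 kb in list 2, within the lncRNA gene Gm31560. It was 11.3-fold over input in list 1 (7.93 to 15.7, 34 fragments, chr17:34555529-34556051), against 16.1-fold in list 2 (11.8 to 21.4, 45 fragments, chr17:34555473-34555974). The weaker, 28.1 kb upstream in list 1 and 28.2 kb in list 2, was 5.51-fold (3.18 to 8.99) and 4.55-fold (2.92 to 6.78) over input and lay within the pseudogene Btnl7-ps. The window of Notch4 also held 9 other protein-coding genes, more than that of any other of the 10 genes.

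The ligand genes had fewer peaks than Notch2 and Notch3, and their strongest peaks had lower folds than those of these 2 receptors. This did not hold against every receptor. Dll1 had 2 peaks in list 1 and 3 in list 2, no fewer than Notch1 (1 and 3) or Notch4 (2 and 2). In list 2 its strongest fold, 8.37, was level with the 8.36 of Notch1. Dll1, a Delta-family ligand, had a site just upstream of its start in both lists, 1.21 kb away in list 1 and 1.20 kb in list 2, the closest to an annotated start among the 10 genes. This peak was 8.08-fold over input in list 1 (5.14 to 12.2, 21 fragments, chr17:15377935-15378380), against 8.37-fold in list 2 (5.44 to 12.4, 23 fragments, chr17:15377980-15378412). The printed Dll1 promoter is the window closest to it, and neither peak reached it. A site 1.54 kb beyond the 3′ end in list 1 and 1.44 kb in list 2 had folds of 4.38 (2.65 to 6.86) and 4.07 (2.31 to 6.76). List 2 alone had a peak 10.2 kb beyond the 3′ end (5.61-fold, 3.35 to 8.91).

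Jag1, the Jagged ligand linked to cardiac outflow defects, had a single site in each list, 31.9 kb beyond its 3′ end. It was 6.61-fold over input in list 1 (4.00 to 10.4, 17 fragments, chr2:137049400-137049725), against 4.88-fold in list 2 (2.76 to 8.11, 13 fragments, chr2:137049387-137049659). The summit lay inside Slx4ip in both lists, so Jag1 was not the nearest gene. Of all peaks 50.3% were stronger in list 1 and 79.3% in list 2. Jag2 had no peak in its window of 122 kb. The summit nearest to its span lay 82.4 kb away in list 1 (9.76-fold, with Pacs2 the nearest protein-coding gene) and 55.8 kb away in list 2 (4.24-fold, inside Gpr132).

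Of the target genes only Hes1 had a peak. Its site 7.46 kb outside the span in list 1 and 7.41 kb in list 2 was 3.10-fold over input in list 1 (1.59 to 5.61, 9 fragments, chr16:30057848-30058200), against 5.68-fold in list 2 (3.49 to 8.80, 18 fragments, chr16:30057777-30058715). The list 1 peak was close to the calling limit: its −log10 q was 1.61, and 99.7% of list 1 peaks were stronger. List 2 had a further Hes1 peak 43.9 kb outside the span (4.88-fold, 2.76 to 8.11). Hey1 and Hey2 had no peak in windows of 104 and 110 kb. For Hey1 the nearest summit lay 74.4 kb from the span in list 1 (8.37-fold) and 68.5 kb in list 2 (3.49-fold, 9 fragments), at different sites. For Hey2 it lay 76.0 kb away in both lists, at a shared site with folds of 8.08 (5.14 to 12.2) and 6.45 (4.39 to 9.16), to which Hey2 was the nearest protein-coding gene. A window of 100 kb would thus have added these 3 genes in both lists, for 10 of 10, against 70.9% of protein-coding genes in list 1 and 72.0% in list 2.

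**Figure D2:**
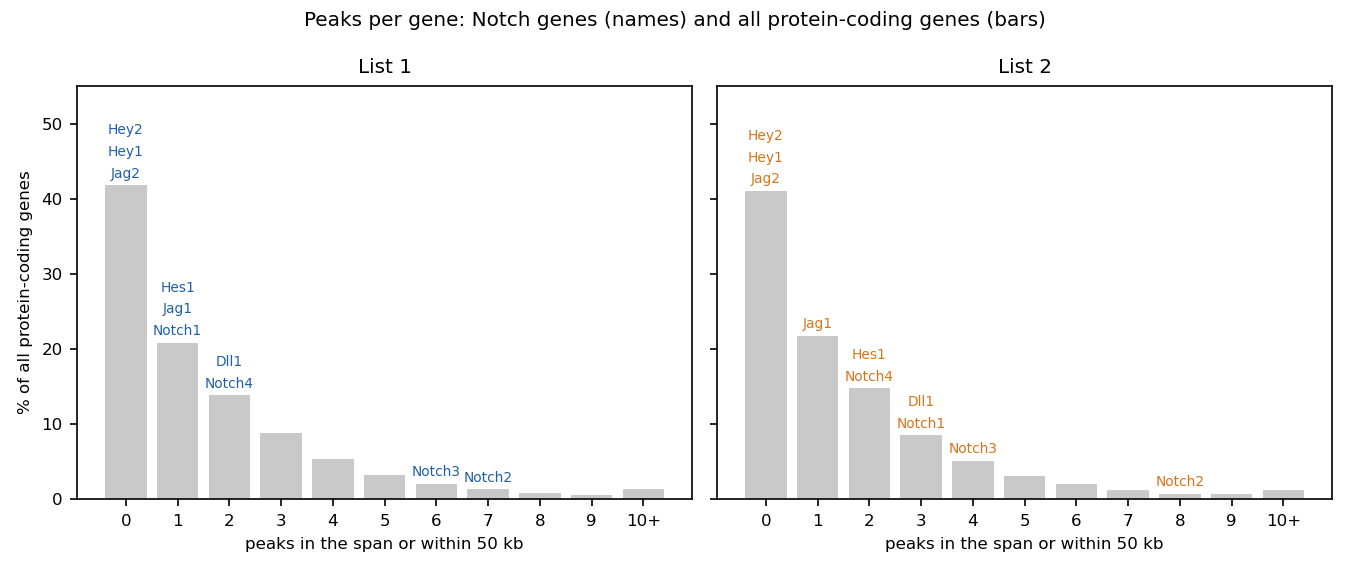
Share of all protein-coding genes (bars, in percent) by their number of peaks in the span or within 50 kb, with the Notch genes named above the bar of their own count, for list 1 (left) and list 2 (right). Notch2, with 7 and 8 peaks, stands among the few percent of genes with the most peaks, and Jag2, Hey1 and Hey2 stand in the bar of genes with none.

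At the median, the peaks of these genes were of ordinary strength for list 1 and weaker than the whole list in list 2. The median fold over input was 5.86 over the 20 peaks of list 1, against 6.24 over all peaks of that list. In list 2 it was 5.61 over the 23 peaks, against 6.83 over all. The median −log10 q was 8.83 against 9.41 over all peaks in list 1, and 7.34 against 11.6 in list 2. Folds of 15 or more were found for 1 of 20 peaks in list 1, against 10.8% of all, and for 2 of 23 in list 2, against 14.3% of all. These were the upstream Notch1 peak in list 1 and, in list 2, the Notch3 peak beyond the 3′ end and the upstream Notch4 peak. The strongest peak of each receptor had a fold between 8.36 and 18.7 in the lists, and the strongest peak of each ligand or target gene with a peak a fold between 3.10 and 8.37.

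**Figure D3:**
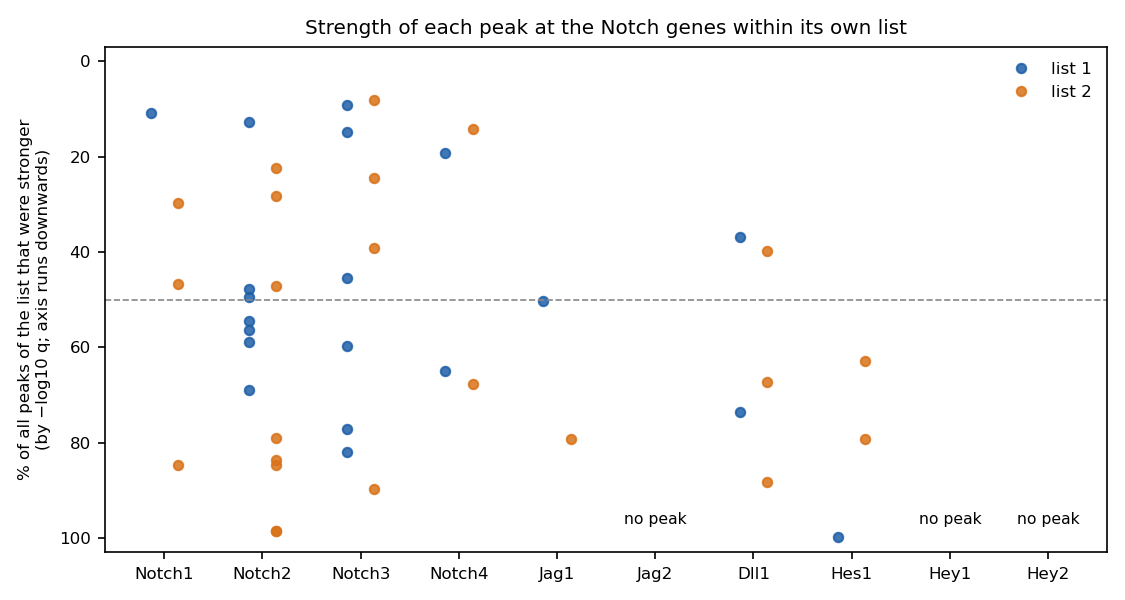
Rank of every peak of the Notch genes within its own list, as the percentage of all peaks of the list with a higher −log10 q (axis running downwards, so stronger peaks stand higher), with list 1 left of list 2 for each gene and a dashed line at the middle of the list. The strongest Notch3 peaks stand highest in both lists, at 9.13% and 8.07%, and the Hes1 peak of list 1 stands lowest, at 99.7%.

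Most peaks lay outside the genes and nearest to them. In list 1 5 of 20 summits and in list 2 8 of 23 lay within the span of the gene they were counted for, all of them in Notch1, Notch2 or Notch3. The Notch gene was the nearest protein-coding gene for 16 of 20 peaks in list 1 and 18 of 23 in list 2. These counts of peaks have no share over all peaks beside them here, so they are not read as particular to these genes. When a peak was counted only for the protein-coding gene nearest to it, Jag1 lost its only peak and 6 of the 10 genes had one in each list, against 32.4% of protein-coding genes in list 1 and 32.5% in list 2.

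The lists shared most of these sites. The 43 peaks made 28 sites, 15 of them common to both lists. Another 5 were called only in list 1 and 8 only in list 2. By an overlap of at least 1 bp, 15 of the 20 peaks of list 1 were shared (Wilson interval 53.1% to 88.8%), against 70.9% of all list 1 peaks. In list 2 it was 15 of 23, or 65.2% (44.9% to 81.2%), against 71.4%. The median summit of a shared site was 21 bp apart in the lists, and 25 bp over all 15015 shared sites. Peaks called in one list only were at most 5.88-fold over input in list 1, against 7.34-fold in list 2. A peak missing from a list was not called there, and the signal at that site in that list was not analysed here.

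**Figure D4:**
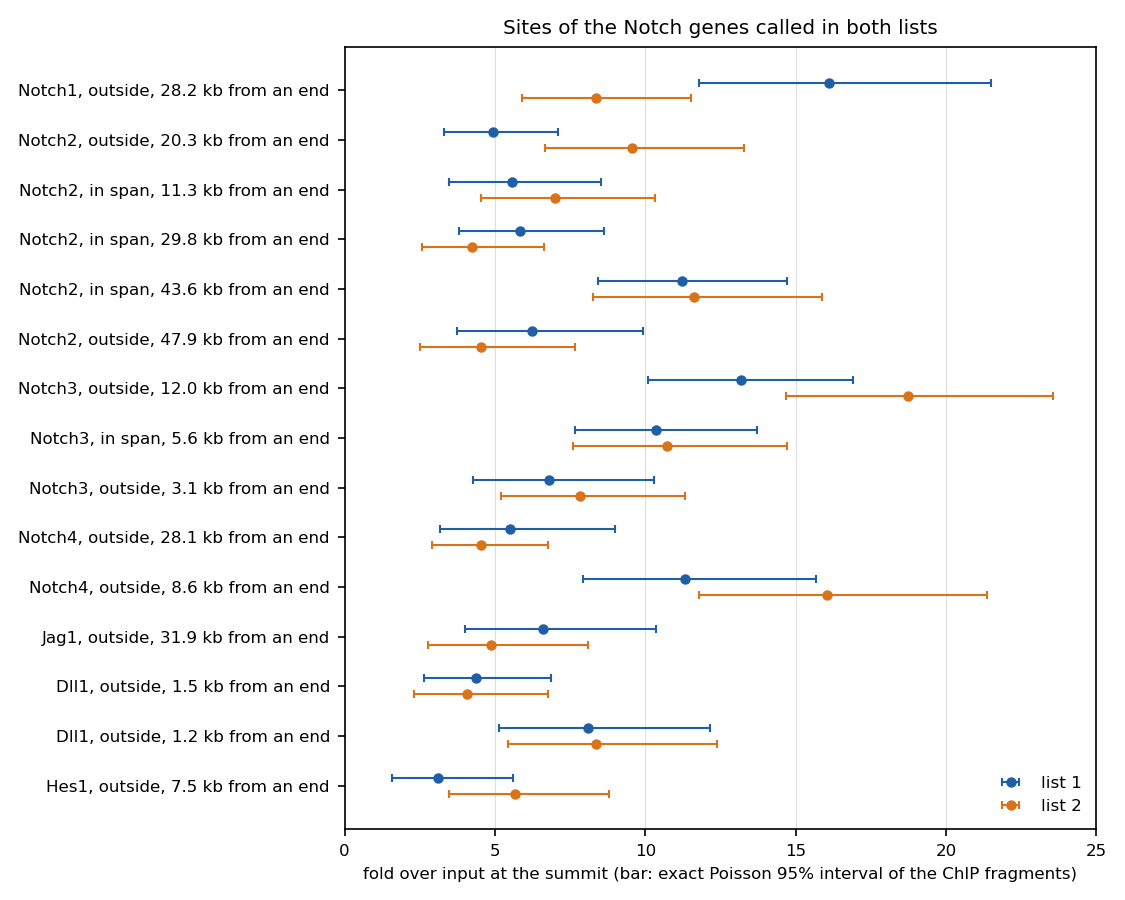
Fold over input at the 15 sites of the Notch genes that were called in both lists, with list 1 above list 2 at each site and bars for the exact Poisson 95% interval of the ChIP fragments. Only at the upstream Notch1 site, with 16.1-fold in list 1 and 8.36-fold in list 2, do the bars not overlap.

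Folds at the 15 shared sites were close in the lists at the median, but single sites differed more. The standard deviation of their log2 ratio was 0.53, against 0.55 over all shared sites. On the log2 scale the ratio of list 1 over list 2 had a median of -0.05 (range -0.95 to 0.95), against -0.15 over all shared sites. List 1 was higher at 6 sites and list 2 at 9, and over all shared sites list 1 was higher at 38.3%. The Poisson intervals were apart at 1 of the 15 sites, the upstream Notch1 site, and at 8.79% of all shared sites. At that site the local background was higher in the list with the lower fold, 1.79 fragments in list 1 against 3.31 in list 2. Over the lowest background of each list in place of the local one the folds there were 16.5 and 12.6. The site with the opposite difference was that 20.3 kb upstream of Notch2, with a log2 ratio of -0.95. There too the higher local background stood in the list with the lower fold, and over the lowest background the folds were 10.3 in list 1 and 11.9 in list 2. The part of the local background in these differences was not tested. With 1 library behind each list, none of these differences could be set against a spread between cultures.

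Of 42 other genes of the pathway, 29 had a peak in list 1, 28 in list 2 and 26 in both, or 69.0%, 66.7% and 61.9%, against the background of 58.2%, 59.0% and 52.2%. Their median number of peaks was 2 in list 1 and 1.5 in list 2, against 1 and 1 over all protein-coding genes. The nuclear partners of the receptors were among those with the strongest peaks. Rbpj, the DNA-binding partner itself, had 8 peaks in list 1 and 7 in list 2. Its strongest in list 1 lay inside the gene (17.3-fold, 12.7 to 22.9) and its strongest in list 2 lay 13.5 kb outside it (21.6-fold, 16.6 to 27.7). Maml3, a Mastermind coactivator, had 9 and 8 peaks, and the strongest, inside the gene in both lists, was 26.4-fold (21.1 to 32.6) and 37.3-fold (31.2 to 44.3) over input. In each list both reached higher folds than any peak of the 10 genes, though the Rbpj interval overlapped that of the highest fold there. By −log10 q Maml3 was also above them in both lists, at 95.5 and 163.9. Rbpj, at 45.3 and 65.6, was below the strongest Notch3 peak, at 47.3 and 68.4.

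Other strong peaks counted for the pathway lay at neighbouring genes. The strongest Dlk2 peak, 30.1-fold in both lists, lay inside Tjap1, 23.3 kb from the gene of this Delta-like protein. That of Spen, a corepressor partner of RBPJ, was 22.4-fold in list 1 and 16.1-fold in list 2 and lay 35.1 and 31.4 kb away, nearest to Fblim1. That of Rbpjl, a relative of Rbpj, was 17.3-fold and 11.97-fold and lay 46.3 kb away, nearest to Slpi. Neurl1a, encoding a ubiquitin ligase of the Neuralized family, had its own, 1.53 kb outside the span in list 1 and 1.61 kb in list 2 (15.8-fold and 25.7-fold). Peaks in list 1 alone were found for Fbxw7, which targets the active receptor for degradation (6.98-fold, inside the gene), Rfng, a Fringe glycosyltransferase (3.90-fold), and the Delta-like gene Dll3 (4.77-fold, nearest to Rps16). Heyl, the third member of the Hey family, had peaks in list 2 alone, the strongest 6.98-fold over input and inside Nt5c1a, as did Snw1, a nuclear cofactor (3.11-fold, nearest to Alkbh1).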

How the data were processed

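The deposited data were 2 peak lists without a header, each called by the authors against input. The submitters' processing notes name Trimmomatic 0.33, Bowtie 1.1.2 and MACS2, and no source used here gives their settings. The deposited lists give per peak a score, the ratio (fold) of ChIP pileup over local background at the summit, with 1 added to both, and −log10 p and −log10 q by the authors.

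The notes name the build as mm39. The coordinates were read as GRCm38, whose RefSeq table placed 380.5 summits per kb within 1 kb of coding starts in list 1 and 352.5 in list 2, against 153.7 and 151.8 at distances of 5 to 10 kb. No coordinate was converted.

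ChIP fragments and local background at each summit were recovered from the deposited fold and p. The recovered fragments were whole numbers, to within 0.02, at 99.99% of summits of either list and at all 43 used here. The median was 19 fragments in list 1 and 22 in list 2, and the lowest 8 in both. No source used here gives library sizes. Intervals of folds are exact Poisson 95% intervals of the fragments and cover counting error only. Python 3.11.15 with scipy 1.17.1 was used, and the calculations were checked on simulated peaks. The genes and lists were chosen with earlier results of these data known. Peaks named one by one were the strongest of each gene, the one nearest to a gene end and those of at least 15-fold, and the others follow in brief. Of the 42 other pathway genes, the 6 with the highest lower −log10 q of the lists and those with a peak in 1 list only were named. Alternatives changed the window, the peaks used, the assignment, the overlap and the background. Peak sequences were not analysed here. Single peaks at 1 locus are counted but not reported here.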

Additional observations from a re-analysis of the deposited data

How the results depend on the processing

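No paired analysis was possible because each group had 1 library and neither list is tied to a group. The counts depended on the window and on the strength of the peaks. With summits in the span only, 2 genes had a peak in list 1, 3 in list 2 and 2 in both, with 5 and 8 peaks, against 20.7% and 20.8% of protein-coding genes. With summits in the span or within 10 kb, 5 of the 10 genes had a peak in list 1 and 6 in list 2, against 33.7% and 33.8% of protein-coding genes. There were then 10 and 13 peaks, and 90.0% of list 1 peaks and 69.2% of list 2 peaks were shared. Of 42 other pathway genes 21 had a peak in list 1 and 18 in list 2, against the same background. With summits within 100 kb there were 40 and 43 peaks. With the 5000 strongest peaks of each list, 4 genes had a peak in list 1, 3 in list 2 and 3 in both, all of them receptors, against 24.6% and 24.4% of protein-coding genes. There were then 5 and 3 peaks, with median folds of 11.3 and 16.1, and 10 and 11 other pathway genes had a peak. The list 1 peaks were 60.0% shared and the list 2 peaks 100.0%. Of 75 recomputed counts, medians and shares 54 stayed within 1.5 times the value or within its interval. Among those 54 were, within 10 kb, the list 1 count of other pathway genes, both counts of the 10 genes and the shared percentage of list 2. So was the shared percentage of list 1 with the 5000 strongest peaks. The other 21, given above, moved. The cause was not tested. On the log2 scale the median ratio of list 1 over list 2 lay between -0.13 and 0.11 over 5 alternatives, and it was above 0 only when centred on all shared sites. For single genes the fold of the strongest peak moved in 5 of 37 cases. The Hes1 peak of list 1 rested on 9 fragments, with a wide counting interval of its fold (1.59 to 5.61).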
